A study of Mus musculus with 6 samples.

Results

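The 3 embryonic stem (ES) cell libraries, titled ES_A, ES_B and ES_C, were taken alone from a series of 6 mouse RNA libraries, and their transcriptome was described by abundance. The libraries were chosen by their titles. The ES cells were of strain 129/Ola and were kept without feeder cells on gelatin in N2B27-2iLIF. Total RNA was extracted with a Qiagen RNeasy kit and the libraries were made for the BGISEQ-500 platform. The labels do not name the ES line or clone and do not say that A, B and C came from separate cultures, so each SD below describes only how far these 3 libraries differed, and part of that may be technical. With 1 group there was no comparison between conditions and no test.

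ES cells are derived from the inner cell mass of the blastocyst and can form all tissues of the embryo. N2B27 is a serum-free medium, 2i is a pair of inhibitors that block MEK in the FGF-ERK pathway and GSK3 in the Wnt pathway, and LIF is a cytokine that acts through STAT3. Together they hold mouse ES cells in the naive state, in which a network of transcription factors around Oct4 (Pou5f1), Sox2 and Nanog keeps the cells undifferentiated. Mouse ES cells divide fast and in this state use both glycolysis and respiration.

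Abundance is given as FPKM, fragments scaled to transcript length and to library size, which allows levels of different genes to be compared per length. The share of a library is given as a percent of the expected counts, estimated fragment counts that are not divided by length. The libraries held 20675311, 21905479 and 22037793 expected counts and listed 15846, 15901 and 15894 genes. In all, 16907 genes were listed in at least 1 of them and 14918 in all 3. Of the 16907 genes, 878 were gene models without a symbol, which took 5.56% ± 0.109 (SD, n = 3) of the counts. A count of 3 came to 0.136 to 0.145 CPM (counts scaled to the library total) in 1 library. Each pair of libraries differed by more than sampling noise, with a chi-square of counts over its degrees of freedom from 2.51 for A and B to 3.61 for B and C.

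All 7 marker genes of pluripotent cells were among the 808 highest of 16907 genes, so the label and the data matched on these markers. Dppa5a, an RNA-binding protein found in early embryos and germ cells, ranked 48th at 1628, 1594 and 1729 FPKM in A, B and C. Pou5f1, which encodes Oct4, ranked 98th at 885, 881 and 905 FPKM. Nanog, a homeobox factor, ranked 168th at 406, 408 and 417 FPKM. In each of these 3 genes library C was the highest, and the ranges of the genes did not overlap. The counts of Dppa5a and Nanog were not whole numbers. Zfp42 (Rex1) stood at 328 ± 2.76 FPKM, Esrrb, an orphan nuclear receptor, at 275 ± 4.05 FPKM, and Sox2, the partner of Oct4 on DNA, at 244 ± 3.33 FPKM (SD, n = 3). Tfcp2l1, a factor downstream of LIF and of the Wnt pathway, was the lowest marker at 99.6, 102 and 104 FPKM.

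Oct4 and Sox2 bind side by side to a composite DNA element. The element upstream of Nanog is shown because it is a textbook site of these factors and because Nanog was the highest of the 4 markers with a GO (Gene Ontology) term for transcription factor activity in the deposited annotation. The Oct4 part TTTGCAT and the Sox2 part ACAA, with 1 base of any kind between them, were searched on both strands of 32851 promoters of 27025 genes in RefSeq (build GRCm38.p6, 250 bases before to 50 after each start). They were found in 12 promoters of 10 genes, 0.0365% of all promoters. In Nanog 2 annotated starts share the match, 75 and 151 bases before the start. Of the other genes with a match, Pipox, a peroxisomal oxidase, stood at 37.2 FPKM and Exoc1, of the exocyst that docks vesicles, at 17.6 FPKM, while Astn1, a neuronal adhesion protein, was listed at 0.0233 FPKM on average. A match of letters is a description and not evidence of binding. The 100 bases around the Nanog match, chr6:122707364-122707463 on the plus strand of GRCm38.p6, read as follows, with the match in capitals.
Nanog: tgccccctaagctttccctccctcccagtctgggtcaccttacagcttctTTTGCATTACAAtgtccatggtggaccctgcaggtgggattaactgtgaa

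The ES transcriptome was spread over many genes with a steep top. Of the 16907 genes, 11191 had a mean of at least 1 FPKM, 6329 of at least 10, 821 of at least 100 and 87 of at least 1000. The median over all listed genes was 4.82 FPKM. The 10 genes with most counts in a library held 8.07% ± 0.124 of its counts, the 100 with most held 21.6% ± 0.0804 and the 1000 with most held 53.6% ± 0.0728 (SD, n = 3). Between 820 and 827 genes made up 50% of the counts of a library and between 5283 and 5289 made up 90%. On the scale of summed FPKM the top was steeper: the 100 highest genes held 34.7% ± 0.243, and 299 to 311 genes made up 50%.

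**Figure D1:**
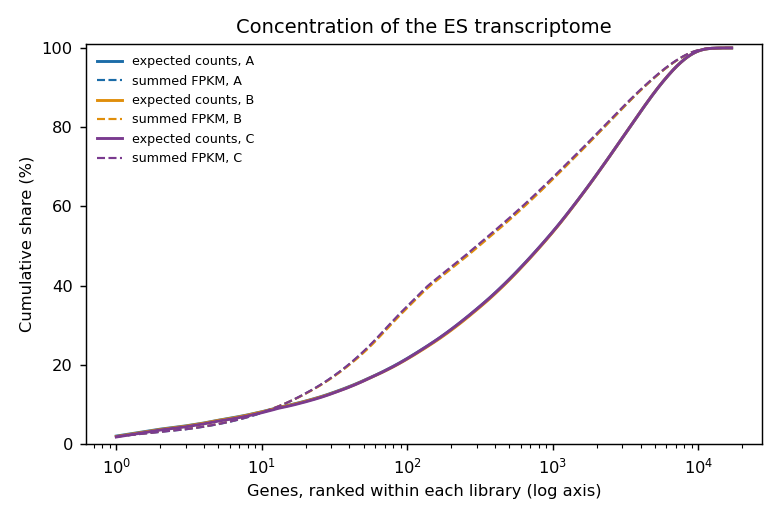
Cumulative share (%) of expected counts (solid lines) and of summed FPKM (dashed lines) against the number of genes, ranked within each of the 3 ES libraries (log axis). The lines of the 3 libraries lie on each other; 100 genes reach 21.6% of the counts and 34.7% of the FPKM on average.

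The largest part of the counts came from genes of middle abundance. The 5508 genes between 10 and 100 FPKM took 46.1% ± 0.153 of the counts, the 734 genes between 100 and 1000 FPKM took 27.3% ± 0.117, and the 87 genes at 1000 FPKM or more took 18.0% ± 0.134 (SD, n = 3). The 4862 genes between 1 and 10 FPKM added 8.33% and the 5716 genes under 1 FPKM added 0.363%. The most abundant transcripts were short. Their median length was 776 bases at 1000 FPKM or more, 1637 bases between 100 and 1000 FPKM, and 2682 bases between 10 and 100 FPKM. FPKM divides by length, so length and this ranking are not independent.

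The 2 highest genes were an elongation factor of translation and a glycolytic enzyme. Eef1a1, the elongation factor that brings aminoacyl-tRNA to the ribosome, was first at 10306, 10459 and 10626 FPKM. Gapdh, the glycolytic glyceraldehyde-3-phosphate dehydrogenase, was second at 6425, 6555 and 6321 FPKM. The ranges of both genes stood apart from each other and from all genes below them. Next came Rps26, a protein of the small ribosomal subunit, at 3376, 3571 and 3588 FPKM. Npm1, a nucleolar chaperone of ribosome assembly, stood at 3490, 3429 and 3578 FPKM. Ptma, a small acidic nuclear protein, stood at 3469, 3410 and 3604 FPKM. The ranges of these 3 genes overlapped, so their order is not resolved.

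Of the 20 highest named genes, 13 encoded ribosomal proteins, with Rpl23a (3356 ± 51.7 FPKM) and Rpl12 (3140 ± 51.5 FPKM) following Rps26. The other 7 were Eef1a1, Gapdh, Npm1, Ptma, the prolyl isomerase Ppia (cyclophilin A, 3199 ± 64.1 FPKM) and the cytosolic chaperones. The constitutive chaperone Hsp90ab1 stood at 3023, 3110 and 3059 FPKM and its paralog Hsp90aa1 at 2468, 2521 and 2497 FPKM, with no overlap. Of the 19 pairs of neighbours in the ranking of these genes, 11 kept their order in every library. Among the 100 highest genes, 65 were models of cytosolic ribosomal proteins and 15 had no symbol. The expected counts of 73 of those 100 genes were not whole numbers, against 17.8% of all genes.

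Messenger RNAs of ribosomal proteins are known to start with a run of pyrimidines, through which mTOR controls their translation. The 40 bases around the annotated start are shown for a few of the 20 highest named genes, 20 bases before and 20 after the start: 4 ribosomal protein genes with the letters CTTTC, 2 without them, and the 2 highest genes. Capitals mark CTTTC, searched on the sense strand only (RefSeq, GRCm38.p6). It was searched anywhere in the window: it lay 10 bases after the start in Rpl12, and 17 before it in Rpl4, which is not shown. The letters therefore do not tell whether an mRNA starts with the pyrimidine run. A window without them can still hold such a run, as in Rps18. Positions are those of that build, not of mm9.
Rps26: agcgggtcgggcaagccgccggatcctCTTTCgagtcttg
Rpl12: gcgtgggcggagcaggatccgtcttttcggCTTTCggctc
Rpl35: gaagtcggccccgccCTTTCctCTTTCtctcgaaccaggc
Rpl28: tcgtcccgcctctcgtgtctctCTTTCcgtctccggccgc
Rps12: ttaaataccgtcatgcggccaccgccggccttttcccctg
Rps18: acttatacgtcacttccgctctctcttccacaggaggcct
Eef1a1: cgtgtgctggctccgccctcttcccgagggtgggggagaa
Gapdh: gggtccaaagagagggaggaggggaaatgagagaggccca

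The windows lie at chr10:128626487-128626526 (Rps26, minus strand), chr2:32961692-32961731 (Rpl12, plus), chr2:39005112-39005151 (Rpl35, minus), chr7:4792945-4792984 (Rpl28, plus), chr10:23787190-23787229 (Rps12, minus), chr17:33955646-33955685 (Rps18, minus), chr9:78481705-78481744 (Eef1a1, minus) and chr6:125165754-125165793 (Gapdh, minus). In this window CTTTC was in 1805 of 32851 promoters, 5.49%. For the 20 highest named genes the table held 15 promoters of 14 genes, of which 6 carried it, all of ribosomal protein genes. The ribosomal protein genes Rps12, Rps18, Rps23 and Rps24 had an entry without it. Only 70.0% of those genes had an entry, so a check over them is void and the windows stand as examples. For genes at 100 FPKM or more, 82.0% had an entry and 6.13% of their 767 promoters carried CTTTC. Between 10 and 100 FPKM, 82.6% had an entry and 4.20% of 5673 promoters carried it. The median number of CpG dinucleotides per 300-base promoter was 23 and 22 in these groups, against 7 over all promoters of the table, which also holds genes that no ES library listed.

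Several abundant proteins were split between a named gene and models without a symbol that carry the same orthology term. The genes of this paragraph were chosen after their values were seen. The named Rps6, a phosphorylated protein of the small subunit, had 13.2 ± 0.382 CPM, while 3 unnamed models with its term had 2298 ± 50.5 CPM, 99.4% of the sum. The unnamed part was 99.2% for Rpl10, 98.9% for Rpl5, 98.1% for Rpl29 and 94.6% for Rpl3, all proteins of the large subunit. It was 60.5% for Rps2, 53.7% for the chromatin protein Hmgb1 and 38.7% for the chaperone Hspa8. For Gapdh it was 4.84%, over 29 models, and for Eef1a1 0.381%. For the ribosomal proteins Rps26 and Rpl7a it was 0.597% and 0.324%, though their counts were not whole. The level of a named ribosomal protein gene is therefore uncertain where the unnamed part is large, and this part differed widely between genes.

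One model without a symbol, annotated as subunit I of cytochrome c oxidase, which is encoded in mitochondrial DNA, ranked 11th by FPKM and on average took more counts than Eef1a1, the next gene on that scale (1.90% ± 0.136 against 1.77% ± 0.0259). It stood at 2973, 2805 and 2576 FPKM and took 2.03%, 1.91% and 1.76% of the counts of A, B and C, where Eef1a1 took 1.74%, 1.76% and 1.79%, so the order of these genes was not kept in C. Its coefficient of variation (CV, SD over mean) was 7.15%. Its model was 6924 bases long. The values are those of the whole model, and whether it holds transcripts other than that of subunit I was not tested.

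By the deposited annotation, 4787 genes with an enzyme number took 29.2% ± 0.235 of the counts, 1396 transcription factor genes 6.85% ± 0.0136 and 887 genes of secreted proteins 1.97% ± 0.0165 (SD, n = 3). Classes overlap and do not add up to the whole. The enzymes made up 28.3% of the genes, near their share of counts. The transcription factors made up 8.26% of the genes and the secreted proteins 5.25%, more than their shares of counts. Of the transcription factor genes 67.8% reached 1 FPKM, and of the secreted protein genes 37.0%, beside 66.2% of all listed genes. The 454 cell surface receptors took 0.548% ± 0.0034 of the counts and the 388 protein kinases 1.82% ± 0.0128. The receptors made up 2.69% of the genes and the kinases 2.29%. Of the receptors 28.2% reached 1 FPKM and of the kinases 75.3%.

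Cytosolic ribosomal proteins, 237 models of which 149 had no symbol, took 8.84%, 8.60% and 8.99% of the counts in A, B and C. On the scale of summed FPKM they took 25.05% ± 0.329, the largest ratio between the scales among the classes plotted. Translation elongation factors took 2.50% ± 0.0316 of the counts and initiation factors 1.30% ± 0.00564. Genes of protein folding took 3.27% ± 0.027 and the proteasome, which degrades tagged proteins, 0.743% ± 0.0106. RNA splicing genes took 3.66% ± 0.0243.

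Genes of the respiratory chain and ATP synthase took 3.22%, 3.10% and 2.98% of the counts, of which unnamed models, the mitochondrial model included, made up 1.92 percentage points. The mitochondrial model alone took 2.03%, 1.91% and 1.76%, so the fall of the class from A to C is that of this model. By FPKM, 62.8% of the 86 genes of the class at 10 FPKM or more were highest in C. The glycolytic process took 1.89% ± 0.0241 and the tricarboxylic acid cycle 0.395% ± 0.00143. The cycle's 26 genes had a median of 71.4 FPKM, while the 56 models of the glycolytic process, 33 of them without a symbol, had a median of 1.56 FPKM. Cell division genes took 2.85% ± 0.0138 and DNA replication genes 0.951% ± 0.00874. KRAB zinc finger proteins are a large family that represses transposable elements with the co-repressor Trim28. The 538 genes with their orthology term took 2.23% ± 0.0177, with a median of 4.73 FPKM. The highest was Zfp42, which also carries a term of its own, so the class is that of the term and not of proteins shown to hold the KRAB domain. Histones took 0.290% ± 0.00837, with 27 of 80 genes at 1 FPKM or more.

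By location terms, genes with a nuclear term took 37.0% ± 0.0539 of the counts, genes with a cytosol term 30.1% ± 0.076, genes with a mitochondrial term 14.1% ± 0.123 and genes with a lysosomal term 1.31% ± 0.00862. Of all listed genes 25.7% carried the nuclear term, 17.5% the cytosol term, 8.35% the mitochondrial term and 1.19% the lysosomal term. The annotation left 2348 genes, with 12.8% ± 0.0722 of the counts, without any GO term, and 33 of the 100 highest genes were among them. Class shares are therefore those of the annotated part.

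**Figure D2:**
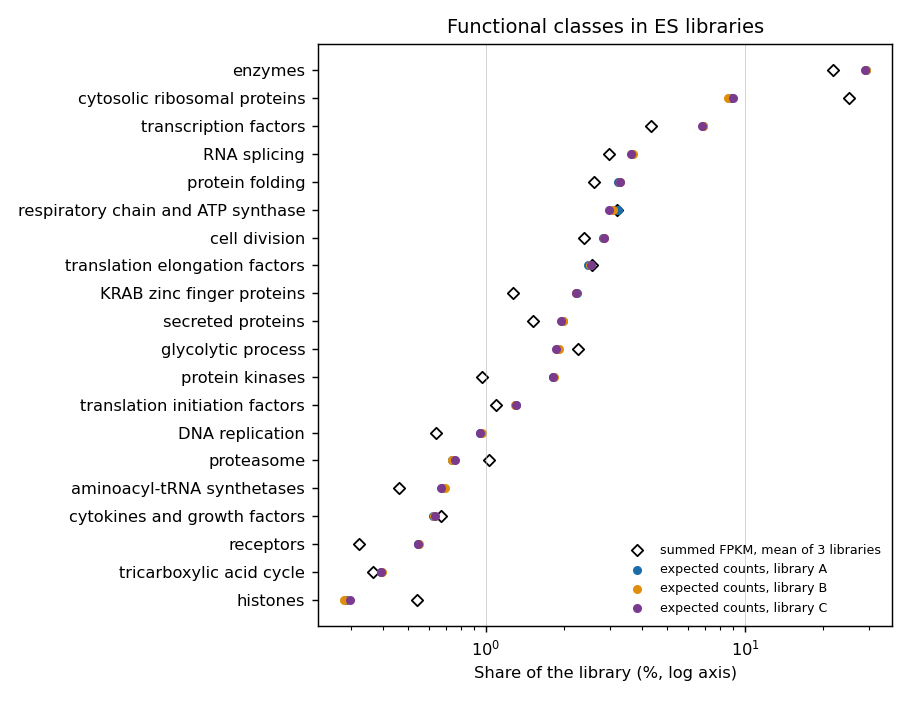
Share of each library (%, log axis) taken by 20 functional classes from the deposited annotation: filled points are the share of expected counts in libraries A, B and C, diamonds the mean share of summed FPKM. Ribosomal proteins move from 8.81% of the counts to 25.05% of the FPKM, and enzymes from 29.2% to 21.8%.

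Pou5f1 was the highest transcription factor, the first of 42 members of the class at 100 FPKM or more. The class as annotated mixes DNA-binding factors with proteins best known for other work. Among its 15 highest members, Eno1b is an enolase copy (662 ± 21.99 FPKM), Hmga1b an architectural chromatin protein (577 ± 10.8 FPKM) and Nme2 a nucleoside diphosphate kinase (476 ± 18.0 FPKM). The same holds for the RNA-binding proteins Hnrnpk (386 ± 4.59 FPKM), Pcbp1 (322 ± 2.06 FPKM) and Cnbp (273 ± 11.96 FPKM) and for the growth regulator Pa2g4 (277 ± 5.99 FPKM). Pou5f1 and Zfp42 had no GO term of the class and entered it through their orthology terms.

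The sequence-specific factors and co-regulators among the 15 covered pluripotency, growth and repeat silencing. Trim28, the co-repressor of KRAB zinc fingers, stood at 457, 458 and 437 FPKM, above Nanog in each library. Mybl2, a factor of cell cycle genes, stood at 288, 300 and 291 FPKM. Trp53, the tumour suppressor p53, stood at 293, 294 and 286 FPKM. Mybl2 and Trp53 overlapped. Zfp990, a KRAB zinc finger gene, stood at 285, 266 and 282 FPKM and Esrrb at 270, 278 and 276 FPKM, also with overlap. The counts of Zfp990 were not whole, nor were those of Nanog, Eno1b, Hmga1b and Hnrnpk. Of the 14 neighbour pairs in this list, 9 kept their order in every library.

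Spp1 (osteopontin), a phosphoprotein of extracellular matrix, was the highest secreted protein at 929, 949 and 986 FPKM. Pgk1, listed second by its extracellular term, is a glycolytic enzyme of the cytosol. Tdgf1 (Cripto), the co-receptor of Nodal that is anchored to the membrane and shed, stood at 289, 301 and 293 FPKM. Its counts were not whole. Cd63, a tetraspanin of late endosomes and exosomes, followed at 209 ± 2.69 FPKM and Igfbp2, which binds insulin-like growth factors, at 204 ± 1.26 FPKM. Cd63 and Igfbp2 kept their order in every library, and their ranges, from 206 to 211 and from 202 to 205 FPKM, did not overlap.

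Lefty2, a Nodal antagonist, stood at 142, 141 and 146 FPKM, with counts that were not whole. Gdf3, a ligand of the same family, stood at 92.9, 94.4 and 96.1 FPKM. Lysosomal proteins were the next group among the 15: Npc2 (127 ± 1.08 FPKM) and Asah1 (94.8 ± 0.397 FPKM), beside the protease inhibitor Cst3 (160 ± 4.92 FPKM). Of matrix proteins, Fn1 (fibronectin) stood at 162, 151 and 128 FPKM and Nid2 (nidogen 2) at 113, 113 and 103 FPKM. Both were lowest in C, and Fn1 had the largest CV of the list, 12.02%. Fn1 in C lay under Lefty2, so their order is not kept, while 11 of 14 neighbour pairs were. The class left out some secreted proteins by their annotation, so this ranking holds for its members only. Apoe, a secreted lipid carrier, was at 777 ± 22.1 FPKM, and Trh, a hormone precursor, at 458, 472 and 510 FPKM. Both were outside the class and were chosen after their values were seen.

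Glycolytic enzymes and Ldhb made up 7 of the 15 highest enzymes, with the enolase copy Eno1b counted beside Eno1. After Gapdh and Ppia, the aldolase Aldoa stood at 1495, 1535 and 1506 FPKM, the pyruvate kinase Pkm at 1065, 1075 and 1044 FPKM and the enolase Eno1 at 968, 997 and 948 FPKM. No 2 of these 3 overlapped as listed. Eno1 shares its orthology term with Eno1b (662 ± 21.99 FPKM), and the counts of both were not whole. The level of Eno1, and its place under Aldoa and Pkm, are therefore uncertain. Ldhb, a lactate dehydrogenase subunit, was at 601, 621 and 625 FPKM, and Pgk1, which makes ATP in glycolysis, at 545, 540 and 530 FPKM. Tpt1 (1975 ± 31.0 FPKM) was in the class through an orthology term for phospholipase D, which is not its known function as a translationally controlled growth protein.

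Other enzymes of the list served respiration, redox balance and amino acid supply. Atp5b, the catalytic subunit of mitochondrial ATP synthase, stood at 1336, 1339 and 1340 FPKM and had the smallest CV of the list, 0.170%. Mif, a cytokine with tautomerase activity, was at 952 ± 2.25 FPKM. Asns, which makes asparagine, was at 706 ± 14.4 FPKM, the superoxide dismutase Sod1 at 682 ± 22.1 FPKM and the peroxiredoxin Prdx1 at 615 ± 26.2 FPKM. Cyb5r1, a cytochrome b5 reductase, was at 873, 823 and 768 FPKM, with counts that were not whole. Its libraries stood in the same order as those of the mitochondrial model, highest in A and lowest in C. Of the 14 neighbour pairs of enzymes, 11 kept their order in every library.

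Receptors were low beside these classes. Cd81, a tetraspanin, was the highest at 287, 299 and 303 FPKM and the only member of the class at 100 FPKM or more. Receptors with a nucleus or cytosol term were outside the class, so this holds for its members only. Tfrc, the transferrin receptor that imports iron, followed at 85.3, 78.5 and 81.8 FPKM. All 7 neighbour pairs of the 8 highest receptors kept their order. Of protein kinases, Cdk4, which drives entry into S phase with D-type cyclins, stood at 464, 475 and 487 FPKM. Csnk1a1, a casein kinase that primes beta-catenin for degradation, was next at 124 ± 2.75 FPKM, and Plk1, a mitotic kinase, was eighth at 70.8 ± 2.87 FPKM. All 7 pairs of the 8 highest kinases kept their order.

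**Figure D3:**
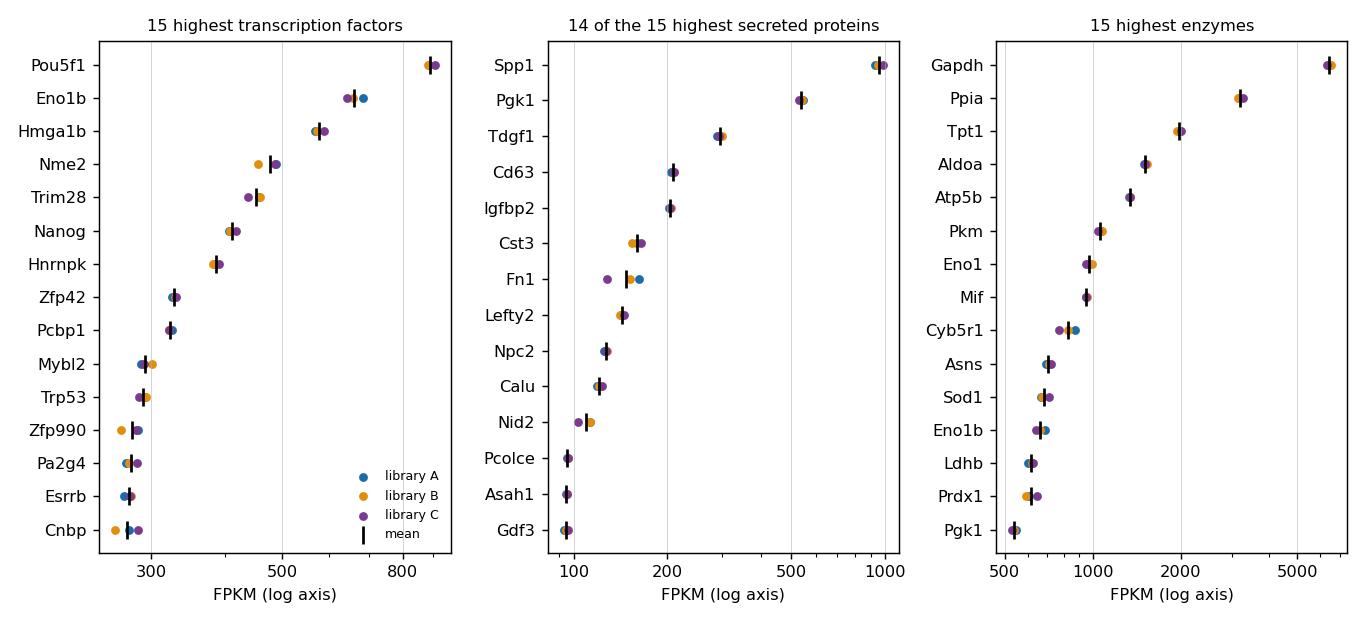
FPKM (log axis) of the 15 highest transcription factors and enzymes and of 14 of the 15 highest secreted proteins in ES libraries A, B and C (points) with their mean (bars). The points of a gene mostly lie close together; Fn1 spreads from 128 to 162 FPKM and Cyb5r1 from 768 to 873 FPKM.

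Of 32 general and naive pluripotency genes, 30 were at 10 FPKM or more and 15 at 100 or more, with a median of 58.5 FPKM, beside 4.82 FPKM over all genes. The lowest was Dppa3, a maternal factor that protects methylation, at 0.47, 0.7 and 1.02 FPKM, which did not reach 1 on average. Of 14 genes of the formative and primed epiblast, the state that follows naive pluripotency, 4 reached 10 FPKM and none reached 100. The highest were Nodal at 45.1, 47.4 and 49.3 FPKM, Zic2 at 25.5 ± 0.654 FPKM and Otx2 at 21.4 ± 0.495 FPKM. Fgf5, the usual marker of the primed epiblast, stood at 0.06, 0.1 and 0.12 FPKM, and Cer1 was in no ES table.

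The lists of pathways that the medium acts on, and the lists after them, are set beside all listed genes. Of those, 66.2% reached 1 FPKM, 37.4% reached 10 and 4.86% reached 100. Of 12 genes of LIF and STAT3 signalling all reached 1 FPKM and 6 reached 10, led by the receptor subunit Il6st (32.6 ± 0.348 FPKM) and by Stat3 at 31, 32.8 and 30.4 FPKM. Lif itself was the lowest at 1.56, 1.76 and 1.75 FPKM. Of 17 genes of FGF-ERK signalling 9 reached 10 FPKM, led by the ERK-responsive factor Etv5 at 124, 126 and 124 FPKM and the ligand Fgf4 at 90.1, 89.4 and 88.1 FPKM. Egr1, an early target of ERK, was the lowest at 0.29, 0.15 and 0.14 FPKM. Of 16 genes of Wnt signalling 12 reached 10 FPKM, led by Ctnnb1 (beta-catenin) at 202, 203 and 192 FPKM, and Lef1 was lowest at 0.68, 0.42 and 0.59 FPKM.

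Of 18 Nodal and BMP genes 8 reached 10 FPKM, with Tdgf1, Lefty2 and Gdf3 highest and the BMP target Id2 lowest at 0.82 ± 0.0173 FPKM. Of 13 genes of DNA methylation 8 reached 10 FPKM. Trim28 was highest, then Uhrf1, which guides maintenance methylation, at 210, 216 and 210 FPKM, and Zfp57, which protects imprints, at 213, 213 and 201 FPKM. The ranges of Uhrf1 and Zfp57 overlapped. Tet3, an enzyme that oxidises methylated cytosine, was lowest at 0.25 ± 0.02 FPKM.

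All 20 replication genes reached 10 FPKM, and 8 reached 100. Pcna, the clamp of DNA polymerase, stood at 350, 335 and 348 FPKM and Mcm7, a subunit of the replicative helicase, at 216, 223 and 211 FPKM. Of 20 cell cycle genes 15 reached 10 FPKM, led by Cdk4, Trp53 and the mitotic cyclin Ccnb1 (133 ± 0.696 FPKM). Ccnd2, a D-type cyclin, was lowest at 0.09, 0.07 and 0.13 FPKM.

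Of 22 glycolysis genes 20 reached 10 FPKM and 12 reached 100, with a median of 202 FPKM. The neuronal enolase Eno2 was lowest at 1.92 ± 0.0557 FPKM. All 21 genes of the tricarboxylic acid cycle reached 10 FPKM and 7 reached 100, with a median of 72.9 FPKM, led by Mdh2 (malate dehydrogenase) at 194, 201 and 198 FPKM. Of 16 genes of threonine, glycine, serine and one-carbon metabolism 15 reached 10 FPKM. Tdh, the threonine dehydrogenase on which mouse ES cells depend, was highest at 512, 523 and 504 FPKM, followed by the serine synthesis enzyme Psat1 at 254, 254 and 263 FPKM. Ahcy, which clears S-adenosylhomocysteine, was lowest at 6.61, 6.76 and 6.77 FPKM, with counts that were not whole. Gm4737, an adenosylhomocysteinase copy also without whole counts, stood at 268, 273 and 271 FPKM, so the level of Ahcy is uncertain; Gm4737 was named after its value was seen.

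Housekeeping proteins held the upper end. Of 22 chaperones 20 reached 100 FPKM, with a median of 299 FPKM. The heat-inducible Hspa1a was the lowest of them at 0.53, 0.4 and 0.36 FPKM, while Hsp90ab1 and Hsp90aa1 were among the 20 highest named genes. Of 19 translation factors 17 reached 100 FPKM. Rack1, a scaffold on the small ribosomal subunit, was the third at 1680, 1631 and 1712 FPKM, and Eif4e, which binds the cap of mRNA, was lowest at 41.0, 40.2 and 41.2 FPKM.

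Of 21 cytoskeletal genes 14 reached 100 FPKM. The cytoplasmic actin Actg1 stood at 1136, 1138 and 1146 FPKM, the actin-severing Cfl1 at 938 ± 14.1 FPKM and the tubulin Tuba1b at 924 ± 11.8 FPKM, and the last pair overlapped. The keratin Krt18 was lowest at 3.83, 4.58 and 3.60 FPKM. Of 23 chromatin proteins listed for their high abundance 15 reached 100 FPKM. The list was drawn up for abundance, so this count is no result about chromatin proteins. After Npm1 and Ptma the histone chaperone Set was highest at 717, 736 and 752 FPKM, and the replication-dependent histone gene Hist1h4a was lowest, listed at 0.34 FPKM in C and 0.13 in B. Hist1h4a does not stand for all histone genes, of which 27 of 80 reached 1 FPKM. Hist1h1a was at 0.193 FPKM, but Hist1h2ap was at 449 and Hist1h2ad at 273 FPKM, the last pair with counts that were not whole. These 3 were named after their values were seen.

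Lists of other cell types had medians from 0.0167 to 1.503 FPKM over their listed members, beside 4.82 FPKM over all genes. Of 10 primitive endoderm markers only Lama1, a laminin chain, reached 1 FPKM, at 12.6, 11.8 and 11.0, and the list summed to 13.6 to 15.1 FPKM, with the defining factors Gata6 and Sox17 at or under 0.12 FPKM in each library. Of 12 feeder fibroblast markers Thy1 alone reached 1 FPKM on average, the sum was 3.08 to 3.40 FPKM, and Col3a1, Lum, Twist2 and S100a4 were in no ES table. The trophoblast list summed to 32.5 to 34.5 FPKM, of which Tfap2c, also known from germ cells, gave 23.2, 23.1 and 21.4. Of its 10 genes 4 reached 1 FPKM, among them Eomes at 6.42 ± 0.186 and Krt7 at 3.34 ± 0.483 FPKM, while Cdx2 was at or under 0.09 FPKM and Hand1, Tpbpa and Prl3d1 were in no ES table. The neural list summed to 49.5 to 52.3 FPKM, of which the tubulin Tubb3 gave 43.5, 46.2 and 45.0, and 3 of its 10 genes reached 1 FPKM. The mesoderm and definitive endoderm list summed to 14.2 to 14.9 FPKM, was led by Eomes and T and had 4 of 10 genes at 1 FPKM or more. The germ cell list summed to 30.6 to 32.9 FPKM, was led by Sycp3, of the meiotic chromosome axis, and had 6 of 10 genes at 1 FPKM or more. The genes of the 2-cell-like state, which rare ES cells enter, summed to 0.12 to 0.21 FPKM. In bulk RNA a few cells with much of a transcript and many cells with little of it cannot be told apart.

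**Figure D4:**
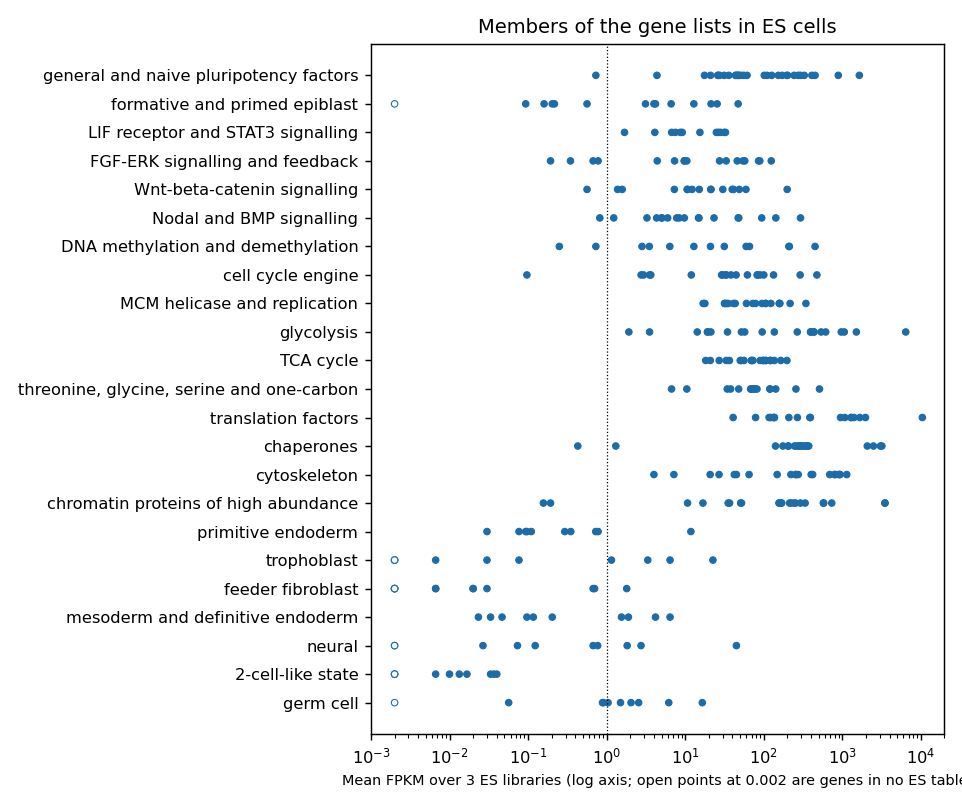
Mean FPKM over the 3 ES libraries (log axis) of each gene in 23 gene lists; the dotted line is at 1 FPKM and open points are genes in no ES table. Metabolic, replication and translation lists lie mostly above 10 FPKM, while most markers of other cell types lie under 1 FPKM.

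The 3 libraries were alike over most genes. Over the 6329 genes at 10 FPKM or more the median CV was 2.96%, and 95% of genes had a CV under 7.94%. The counting error, taken as the inverse square root of the mean count, had a median of 2.54%. The CV of 3 values tends to lie under the true CV, so 2.54% is not the median CV that counting alone would give. The common biological coefficient of variation is the spread beyond counting that edgeR fits to genes jointly. It was 3.86% over the 12738 genes that passed the count filter, and 4.15% over 16907 genes with no filter. With the filter it was 2.82% without library C, and 4.31% or 4.18% without A or B. Pearson's r of log2 FPKM across genes, which are not independent replicates, was 0.998 for A and B and 0.997 for both pairs with C.

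A CV above 10% was found for 151 genes, 2.39% of the 6329, and above 20% for 24. Of the 24, 20 were models without a symbol, the largest at 147%. Among named genes Rpl10 had the largest CV, 43.2%, at 22.3, 9.02 and 15.0 FPKM, and as given above it shared its orthology term with 3 unnamed models. Cdk2ap1, an inhibitor of CDK2, stood at 69.7, 50.9 and 46.8 FPKM (CV 21.8%) and Polr2k, a small subunit shared by the RNA polymerases, at 14.8, 13.5 and 19.6 FPKM (CV 20.1%). Of the 100 genes with the largest CV, 70 had counts that were not whole, against 19.1% of all genes at 10 FPKM or more. The smallest CV belonged to Aph1a, a subunit of gamma-secretase, at 19.0 FPKM in each library (0.0303%). Ash2l, of the histone H3K4 methyltransferase complexes, stood at 168 FPKM in each library (0.0774%). Both lie under their counting error of 2.80% and 0.942%.

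The libraries differed by transcript length. Library C was the highest of the 3 for 40.5% of the 6329 genes, but for 62.9% of 143 ribosomal protein models and 62.8% of 86 genes of the respiratory chain and ATP synthase. The 686 genes with transcripts under 1000 bases lay a median of 0.04 above their own mean on the log2 scale in C and 0.03 below it in B. The 1388 genes of 4000 bases or more lay 0.01 below it in C and 0.01 above it in B. Of these 1388 genes, 47.2% were lowest in C, Fn1, Nid2 and Cyb5r1 among them, and 27.4% were highest in C, such as Eif4g2 at 203, 211 and 214 FPKM. Ribosomal protein models had a median CV of 3.38% beside a median counting error of 1.05%, and transcription factors 2.91% beside 2.36%. Whether length had a part in these shifts was not tested.

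**Figure D5:**
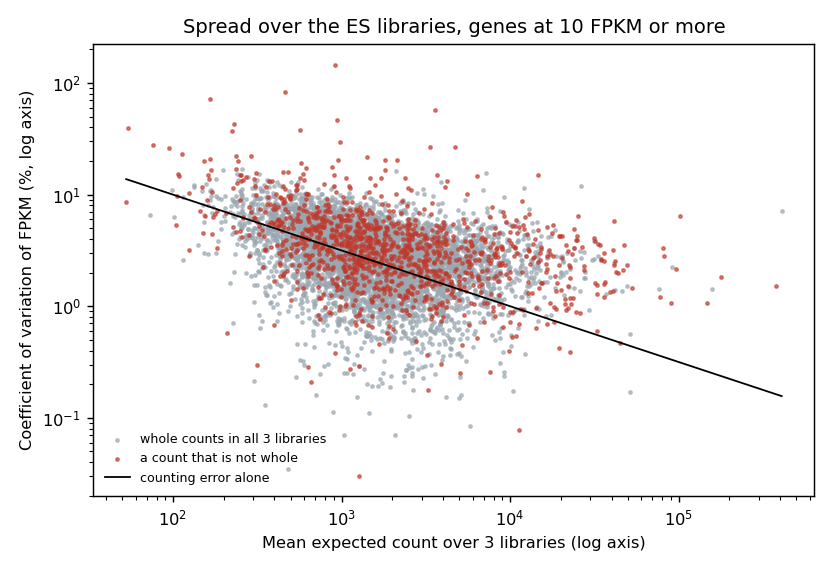
Coefficient of variation of FPKM over the 3 ES libraries (%, log axis) against the mean expected count (log axis) for the 6329 genes at 10 FPKM or more; red points are genes with a count that is not whole and the line is counting error alone. At the highest counts most points lie above the line, and 70 of the 100 genes with the largest CV are red.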

How the data were processed

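The ES libraries were 3 tables, 1 per library. The genome build mm9 and the tools Bowtie2, RSEM and DESeq2 are named in the submitters' processing notes, without versions or roles. Per the file headers, the deposited values are expected counts, not all whole, and FPKM by the authors, with transcript length, GO, orthology and protein-hit annotation. The annotation was deposited by the authors; how it was made is not given in the sources used here. Genes that 1 library's table did not list were set to 0 in that library.

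Genes were ranked by mean FPKM over the 3 libraries. Shares are percent of expected counts. Transcription factors were taken from GO or orthology terms, secreted proteins from extracellular GO terms without cytosol, nucleus or mitochondrion terms, and enzymes from enzyme numbers in orthology terms. Receptors held a GO term of receptor activity and a plasma membrane or cell surface term, without nucleus or cytosol terms. Protein kinases held a kinase GO term and an enzyme number of protein kinases. A count was called whole within 0.005. For the spread, expected counts were rounded, filtered for low counts and fitted with edgeR 4.0.16 (R 4.3.3, TMM, intercept only). Python 3.11.15 and pandas 2.3.3 did the rest. On simulated libraries with 11568 genes and a set biological coefficient of variation of 5%, the fit gave 4.97%.

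Members and lists were chosen with earlier results of these data known. Genes were named by rule: the 20 highest; the 15 highest transcription factors, secreted proteins and enzymes and the 8 highest receptors and kinases; the markers; of each of 23 lists the 3 highest and the lowest; and the 10 largest and 5 smallest CVs at 10 FPKM or more. The text gives a part of them, and some members are not reported here. Defining markers of other cell types, and genes so marked, were added after their values were seen. Alternatives left out each library, used summed FPKM, other ranks, scalings, filters and class definitions. The other 3 libraries were not used.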

Additional observations from a re-analysis of the deposited data

How the results depend on the processing

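Of 62 values of 12 results under alternatives, 39 stayed within the spread of the libraries or, for counts, within 1.5 times, and 23 moved. Leaving out a library cannot move a mean share by as much as the SD of the libraries. Those shares therefore stayed by construction and say nothing about stability. With summed FPKM in place of counts, the 100 most abundant genes took 34.7%, transcription factors 4.35%, secreted proteins 1.52%, enzymes 21.8% and ribosomal proteins 25.05%. Without unnamed models these shares of counts were 20.2%, 7.11%, 2.07%, 28.7% and 7.44%. Without the most abundant gene of each class, transcription factors took 6.71%, secreted proteins 1.84%, enzymes 27.3% (without the mitochondrial model) and ribosomal proteins 8.43%. Chosen after seeing the data, transcription factors by GO terms alone took 5.46%, secreted proteins with inside terms allowed 4.45% and enzymes with a catalytic GO term too 22.9%. Ranked by CPM, which is not per length, 9 of the 15 highest secreted proteins stayed, and 10 of 15 transcription factors and of enzymes. With no filter on low values the median CV was 6.21%. Leaving out each library gave 2.19% to 2.68% for the median CV and 2.82% to 4.31% for the biological coefficient of variation; all 15 members of each list stayed. The cause of these moves, beyond the construction of each alternative, was not tested. No paired analysis was possible because no result came from a test between groups. Class shares are limited by the annotation, levels of copied genes by models with the same orthology term, and genes near 0.14 CPM by depth.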
